A study of Mus musculus with 6 samples.

Results

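A set of 8 mouse genes, Cd93, Krt80, Oplah, Cubn, Mttp, Nup210l, Tgoln1 and Hbegf, was examined in NIH3T3 cells, an established embryonic fibroblast line, after siRNA against SPT6. The 8 were a listed selection from the 24062 gene symbols in the counts, picked because their RNA was higher with SPT6 siRNA than with control siRNA in each of 3 matched pairs of libraries. That difference is therefore given as a description, without a test. All 8 had counts in every library and passed the filter on low counts, as did 13185 genes in all.

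RNA was sequenced from 6 libraries in 4 groups. Cells received SPT6 siRNA or negative control siRNA for 48 h and were then given IFN-beta (interferon beta) at 100 units/ml for 4 h or left untreated at 0 h. The groups were SPT6 siRNA untreated (1 library, replicate 1), control siRNA untreated (1 library, replicate 1), SPT6 siRNA with IFN-beta (replicates 1 and 2) and control siRNA with IFN-beta (replicates 1 and 2). The matched pairs were untreated replicate 1, IFN-beta replicate 1 and IFN-beta replicate 2. The labels name 1 siRNA against SPT6 and do not say whether replicates were separate cultures. Effects of that siRNA on other RNAs cannot be told apart from those of SPT6 loss, an effect of 4 h from that of IFN-beta, and the spread between replicates may be technical.

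SPT6, encoded by Supt6, is a histone chaperone that travels with RNA polymerase II and helps to reassemble nucleosomes behind it. The 8 genes share no pathway. Several are best known outside fibroblasts: Cd93 from endothelial and myeloid cells, Krt80 from epithelia, Cubn from kidney tubule and intestine, Mttp from liver and intestine, and Nup210l from testis. Oplah encodes an enzyme of glutathione turnover, Tgoln1 a membrane protein of the trans-Golgi network, and Hbegf a growth factor that cells make on receiving mitogens or stress.

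Counts in genes were 7935961 to 11174825 per library with SPT6 siRNA and 11968565 to 17596498 with control siRNA, so the SPT6 siRNA library was the shallower in every pair. Supt6 itself was at 101, 108 and 88.3 CPM with SPT6 siRNA, against 175, 177 and 189 CPM with control siRNA, in the order untreated, IFN-beta replicate 1 and IFN-beta replicate 2; CPM are read counts scaled to a common library size, with the TMM factors. Its ratio within a pair was 0.58, 0.612 and 0.467, the lowest in IFN-beta replicate 2. Over the 3 pairs Supt6 fell (log2 difference -0.86 ± 0.12, SE; adjusted p = 0.0341 by edgeR), a call that 7 of 15 alternative settings also made (adjusted p of 1.38e-06 to 0.256) and that was lost without any 1 library other than SPT6 siRNA IFN-beta replicate 1. The 8 fibroblast markers fixed for a check of cell identity, among them Col1a1 and Vim, were abundant in all libraries but summed to 12475 to 13959 CPM with SPT6 siRNA and 16765 to 19024 CPM with control siRNA; all 8 had differences below 0 and none passed the test. The share of counts from the ribosomal RNA precursor Rn45s was 2.39% in SPT6 siRNA IFN-beta replicate 2 and 0.841% to 1.34% in the other libraries. The part of depth, of fibroblast marker levels and of Rn45s in the differences below was not tested.

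Start-site sequences were at hand for 3 of the 8 genes and are shown because the window of Mttp also holds the start of a neighbouring gene, described below with the neighbours. Each line gives the 250 bases before the RefSeq start on the strand of the gene (RefSeq, GRCm38.p6), in lower case, with capitals for the only match to a searched motif.
Cubn, chr2:13491877-13492126, minus strand: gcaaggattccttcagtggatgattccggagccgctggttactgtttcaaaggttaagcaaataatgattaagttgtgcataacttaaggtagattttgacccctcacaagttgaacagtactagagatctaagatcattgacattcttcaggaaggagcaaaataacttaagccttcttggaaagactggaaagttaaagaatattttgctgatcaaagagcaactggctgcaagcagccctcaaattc
Mttp, chr3:138143419-138143668, minus strand: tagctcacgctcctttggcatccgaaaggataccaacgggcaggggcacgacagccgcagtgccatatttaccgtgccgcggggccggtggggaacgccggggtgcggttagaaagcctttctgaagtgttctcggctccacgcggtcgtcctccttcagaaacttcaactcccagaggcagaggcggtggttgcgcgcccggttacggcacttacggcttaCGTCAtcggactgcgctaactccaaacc
Tgoln1, chr6:72617001-72617250, minus strand: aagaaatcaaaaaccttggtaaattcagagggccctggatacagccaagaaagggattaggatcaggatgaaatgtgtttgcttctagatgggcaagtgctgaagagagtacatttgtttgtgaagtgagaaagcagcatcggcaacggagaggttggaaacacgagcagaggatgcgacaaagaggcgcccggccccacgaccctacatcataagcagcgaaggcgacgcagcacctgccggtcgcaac
The windows had GC contents of 39.6% in Cubn, 61.2% in Mttp and 51.2% in Tgoln1, against a median of 52.4% over 32851 such windows of all genes. The capitals in Mttp are the reverse complement of TGACG, the short form of the cAMP response element, 28 to 24 bases before the start; 17.8% of all windows hold it on either strand. Searched on both strands, none of the 3 windows held a TATA box (TATAAA, in 12.4% of all windows), an AP-1 motif (TGANTCA, 6.75%), a full cAMP response element (TGACGTCA, 1.55%), a GC box (GGGCGG, 32.7%), an E-box (CACGTG, 6.02%), a CCAAT box (CCAAT, 33.8%) or the core of the interferon-stimulated response element (in 2.98%). The short form of the cAMP response element lies inside the full one, and the other motifs were counted separately.

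Levels differed widely among the 8. Per kilobase of exon, the level with SPT6 siRNA was highest for Tgoln1 (15.0 ± 3.73 CPM per kb, SD, n = 3 libraries) and Hbegf (13.8 ± 10.98), followed by Cd93 (7.37 ± 1.10), Mttp (5.37 ± 0.948), Nup210l (3.75 ± 1.73), Oplah (2.60 ± 0.694), Krt80 (2.21 ± 1.53) and Cubn (1.94 ± 1.25). The order with control siRNA was Tgoln1 (4.50 ± 0.499), Hbegf (4.47 ± 3.65), Mttp (1.63 ± 0.548), Cd93 (1.61 ± 0.252), Nup210l (0.927 ± 0.196), Oplah (0.593 ± 0.231), Cubn (0.521 ± 0.116) and Krt80 (0.479 ± 0.333). Ranges over libraries overlapped between all neighbours in either order except Cd93 and Nup210l with control siRNA. Among 12546 tested genes with a known exon length, Tgoln1 was at percentile 74.2 with SPT6 siRNA and 41.2 with control siRNA, Cd93 at 55.3 with SPT6 siRNA and 22.5 with control siRNA, and Oplah at 29.8 with SPT6 siRNA and 12.6 with control siRNA.

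**Figure D1:**
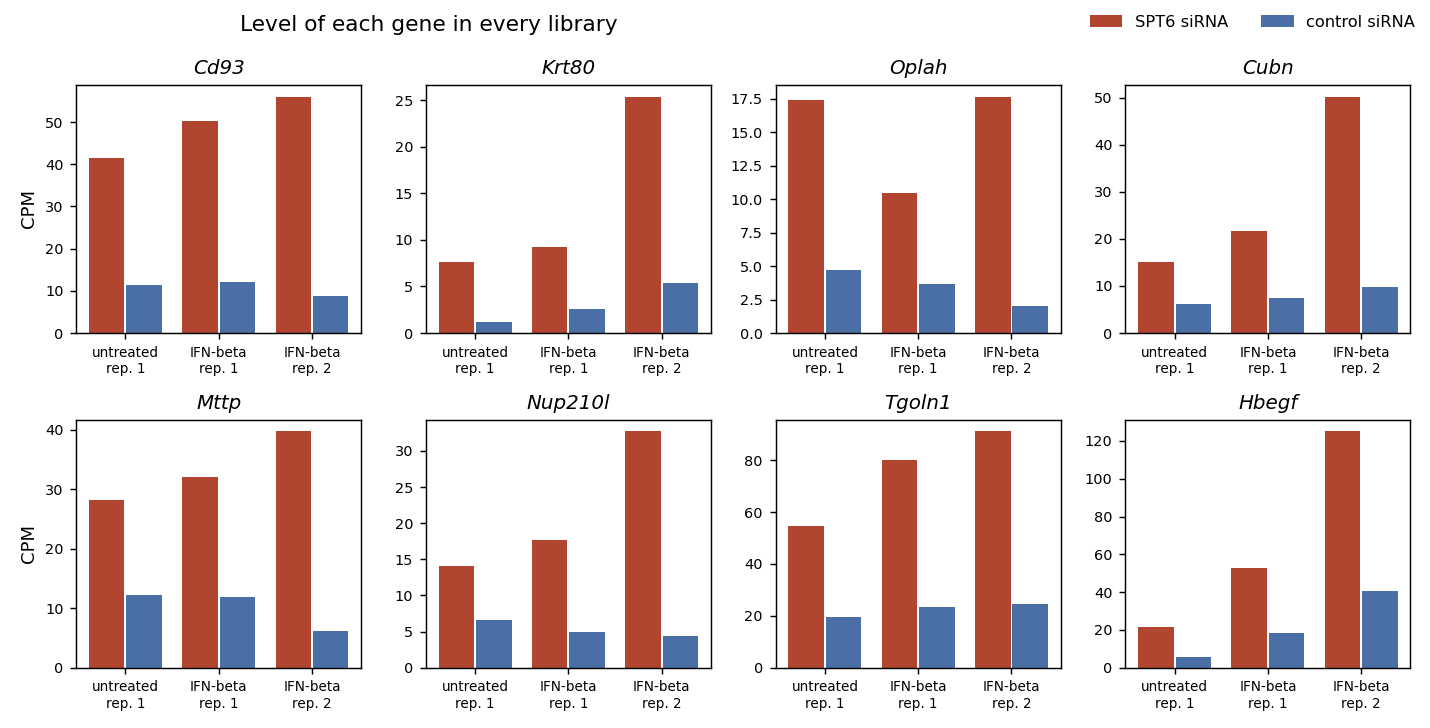
Level of each of the 8 genes in CPM (y axes, each from 0) in the 3 matched pairs (x axes), with SPT6 siRNA left and control siRNA right; each bar is 1 library, so there is no error bar. In every pair the SPT6 siRNA bar is the higher, from 7.67 against 1.23 CPM for Krt80 untreated to 125 against 40.6 CPM for Hbegf in IFN-beta replicate 2.

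Cell-surface and secreted molecules came first. Cd93 (chromosome 2, 148436640 to 148443563, minus strand, GRCm38) encodes a transmembrane receptor with a C-type lectin domain. It was at 41.5, 50.2 and 56.0 CPM with SPT6 siRNA (346, 493 and 644 counts), against 11.3, 12.0 and 8.84 CPM with control siRNA (138, 160 and 149 counts), in the order untreated, IFN-beta replicate 1 and IFN-beta replicate 2. Every SPT6 siRNA library lay above every control library, as for 12.2% of all tested genes, and the control libraries stayed within a 1.36-fold range. The ratio within pairs was 3.66 (95% counting interval 2.99 to 4.49), 4.17 (3.48 to 5.02) and 6.33 (5.29 to 7.62).

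Hbegf (chromosome 18, 36504927 to 36515805, minus strand) encodes heparin-binding EGF-like growth factor, a membrane-anchored ligand of the EGF receptor. It was at 21.5, 53.0 and 125 CPM with SPT6 siRNA, against 5.75, 18.5 and 40.6 CPM with control siRNA. It was the only listed gene whose groups overlapped, since the untreated SPT6 siRNA library lay below control IFN-beta replicate 2. With either siRNA the level differed between libraries more than between siRNAs, over a 5.83-fold range with SPT6 siRNA and a 7.07-fold range with control siRNA. Within pairs the ratio was 3.73 (2.82 to 4.99), 2.86 (2.45 to 3.34) and 3.08 (2.81 to 3.37).

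Cubn (chromosome 2, 13276338 to 13491813, minus strand) encodes cubilin, an endocytic receptor for intrinsic factor with vitamin B12 and for filtered proteins. Its levels were 15.1, 21.6 and 50.2 CPM with SPT6 siRNA, against 6.24, 7.45 and 9.67 CPM with control siRNA. The lowest SPT6 siRNA library was above the highest control library. Within pairs the ratio was 2.42 (1.81 to 3.26), 2.90 (2.27 to 3.72) and 5.19 (4.35 to 6.21), so the interval of the last pair did not overlap those of the others. At 14935 bases of exon and up to 67 exons in a transcript, Cubn was the longest of the 8.

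Among genes of metabolism and lipid transport, Mttp (chromosome 3, 138089854 to 138144968, minus strand) encodes the large subunit of the microsomal triglyceride transfer protein, which loads lipid onto apolipoprotein B. Mttp was at 28.2, 32.1 and 39.7 CPM with SPT6 siRNA, against 12.2, 12.0 and 6.17 CPM with control siRNA. The groups did not overlap, and control IFN-beta replicate 2 was the lowest library. The ratio was 2.32 (1.88 to 2.87), 2.68 (2.21 to 3.27) and 6.44 (5.19 to 8.05).

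Oplah (chromosome 15, 76296601 to 76328015, minus strand) encodes 5-oxoprolinase, which turns 5-oxoproline back into glutamate. Its levels were 17.4, 10.5 and 17.6 CPM with SPT6 siRNA, against 4.68, 3.69 and 2.02 CPM with control siRNA. Control IFN-beta replicate 2 was again the lowest, with 34 counts. The ratio of 8.75 (6.06 to 13.0) in IFN-beta replicate 2 was the highest of all listed genes and pairs, beside 3.71 (2.71 to 5.14) in the untreated pair and 2.85 (2.01 to 4.09) in IFN-beta replicate 1.

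Structural and organelle genes made up the rest. Krt80 (chromosome 15, 101347444 to 101370162, minus strand), a type II keratin gene, was at 7.67, 9.27 and 25.4 CPM with SPT6 siRNA (64, 91 and 292 counts), against 1.23, 2.56 and 5.40 CPM with control siRNA (15, 34 and 91 counts). Both siRNAs gave their highest level in IFN-beta replicate 2, and the groups did not overlap. With 15 counts in the untreated control library, the ratio of 6.23 there had the widest interval (3.51 to 11.8), beside 3.62 (2.42 to 5.54) and 4.70 (3.70 to 6.02) with IFN-beta.

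Nup210l (chromosome 3, 90104132 to 90212048, plus strand) encodes a relative of the nuclear pore membrane protein Nup210. It was at 14.02, 17.6 and 32.7 CPM with SPT6 siRNA, against 6.57, 4.89 and 4.45 CPM with control siRNA. The groups did not overlap, and the distance between them was smallest untreated. Its ratio was 2.13 (1.59 to 2.87), 3.60 (2.70 to 4.87) and 7.35 (5.72 to 9.54).

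Tgoln1 (chromosome 6, 72608432 to 72617000, minus strand) encodes TGN38, which cycles between the trans-Golgi network and the cell surface. It was at 54.5, 80.0 and 91.0 CPM with SPT6 siRNA, against 19.7, 23.5 and 24.4 CPM with control siRNA. No overlap was seen, and the control libraries stayed within a 1.24-fold range. The ratio was 2.77 (2.36 to 3.25), 3.41 (2.98 to 3.90) and 3.72 (3.32 to 4.18). Tgoln2 was listed at 0 in all 6 libraries.

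The size of the difference was not the same in the 3 pairs. On the log2 scale, with a prior count of 2, the median of the 8 was 1.66 in the untreated pair, 1.64 in IFN-beta replicate 1 and 2.50 in IFN-beta replicate 2, beside medians of -0.02, -0.00445 and -0.03 over all tested genes. IFN-beta replicate 2 held the largest difference for 6 of the 8, all but Krt80 and Hbegf, which were largest untreated. The mean over pairs ran from 1.67 ± 0.19 (SD, n = 3 pairs) for Hbegf to 2.18 ± 0.41 for Cd93, and the spread over pairs from 0.19 for Hbegf to 0.88 for Nup210l. IFN-beta replicate 2 was also the pair with the lowest Supt6 ratio and the highest Rn45s share with SPT6 siRNA. The part of either was not tested.

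**Figure D2:**
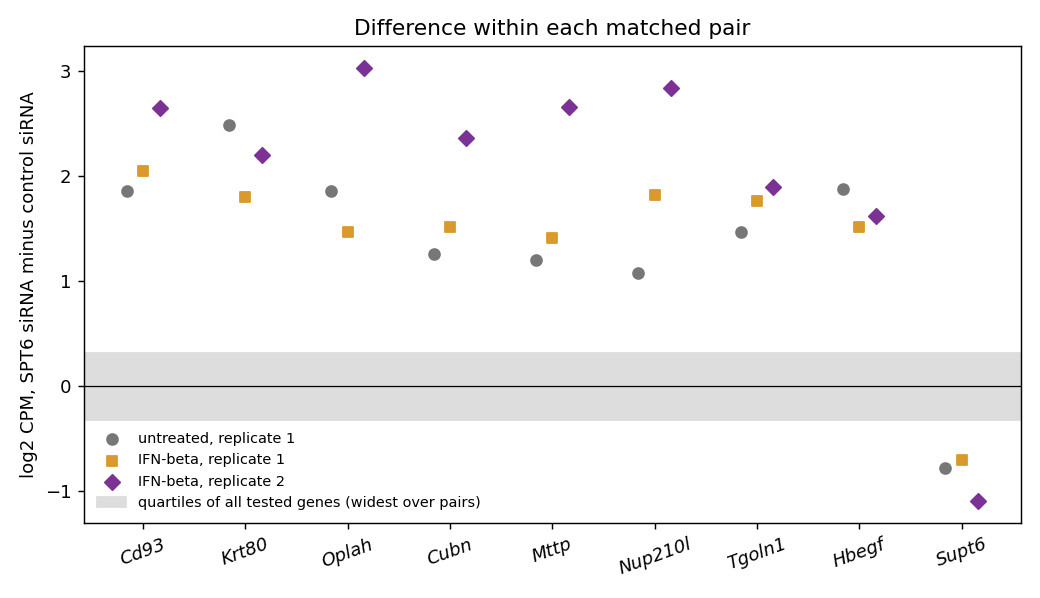
Log2 CPM with SPT6 siRNA minus log2 CPM with control siRNA (y axis, prior count of 2) for the 8 genes and Supt6 (x axis), 1 point for each matched pair of libraries; the grey band spans the quartiles of all 13185 tested genes, at their widest over pairs. All 24 points of the 8 genes lie above the band, from 1.07 for Nup210l untreated to 3.03 for Oplah in IFN-beta replicate 2, and the 3 points of Supt6 lie below it.

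The 8 were not the only genes of this kind. A difference above 0 in each of the 3 pairs was shown by 3407 tested genes (25.8%), and one above 1 by 174 (1.32%), the 8 listed genes included. Every SPT6 siRNA library was above every control library for 7 of the 8, beside the 12.2% of all tested genes. Ranked by the smallest of the 3 differences, Cd93 stood at 21 and Nup210l, the lowest of the 8, at 146 of 13185. Of the 146 genes down to that rank, 18 had an average of 3 or more on the log2 CPM scale, the 8 among them. Because the choice was made on this contrast, nothing is read from these counts. In the same fit over 6 libraries, 113 genes were called higher (0.857%) and 6 lower (0.0455%) with SPT6 siRNA, together 119. Leaving out 1 library gave 0 calls without either untreated library or SPT6 siRNA IFN-beta replicate 2, 3 without control IFN-beta replicate 1, 2 without control IFN-beta replicate 2 and 154 without SPT6 siRNA IFN-beta replicate 1.

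The choice did not use the contrast of IFN-beta with untreated cells, though it used the same libraries. None of the 8 passed the test over all genes, either over both siRNAs (smallest adjusted p = 0.101, for Hbegf; background 2.15% called), with SPT6 siRNA (smallest adjusted p = 0.799; background 0.0455%) or with control siRNA (smallest adjusted p = 0.548; background 0.137%), by edgeR's quasi-likelihood test. DESeq2 called 1 of the 8, Hbegf, in each of the 3 comparisons, where it called 6.47%, 0.978% and 1.56% of all tested genes in the same order. The test of limma-voom called none of the 8, against 1.37%, 0% and 0.0379% of all tested genes. At an unadjusted p under 0.05, over both siRNAs, stood 3 of the 8 against 19.5% of all genes. Hbegf was at 53.0 and 125 CPM with IFN-beta and 21.5 CPM untreated under SPT6 siRNA, and at 18.5 and 40.6 CPM with IFN-beta and 5.75 CPM untreated under control siRNA (log2 difference over both 2.19 ± 0.50, SE). All 4 IFN-beta libraries of Hbegf thus lay above the untreated library of the same siRNA. Over both siRNAs Hbegf passed with DESeq2 (adjusted p = 1.65e-06) and without SPT6 siRNA IFN-beta replicate 1 (adjusted p = 0.0299). Hbegf also passed over both siRNAs with the replicate number as a term in the edgeR fit, where 10.3% of all tested genes did. That fit compares IFN-beta with untreated cells within replicate 1 only. Krt80 (1.38 ± 0.52, adjusted p = 0.222) and Tgoln1 (0.47 ± 0.15, adjusted p = 0.150) were the others with an unadjusted p under 0.05, and Krt80 passed without SPT6 siRNA IFN-beta replicate 1 (adjusted p = 0.0329).

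The remaining responses over both siRNAs were 0.87 ± 0.39 for Cubn, 0.18 ± 0.38 for Nup210l, 0.13 ± 0.19 for Cd93, -0.04 ± 0.30 for Mttp and -0.50 ± 0.31 for Oplah (adjusted p of 0.280 to 0.957). With SPT6 siRNA alone 7 of the 8 had a response above 0, beside 50.7% of all genes, and the median of the 8 was 0.75. With control siRNA 4 of the 8 did, beside 49.4% of all genes, so that count was near the background, and the median was 0.08. The medians over all genes were 0.01 with SPT6 siRNA and -0.01 with control siRNA. An unadjusted p under 0.05 was reached by 2 of the 8 with SPT6 siRNA (5.85% of all genes) and by 1 with control siRNA (8.24%). The difference between these responses was not tested, since it is made from the same pair differences the genes were picked on. The single untreated library of each siRNA was assumed to vary as the IFN-beta libraries do.

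**Figure D3:**
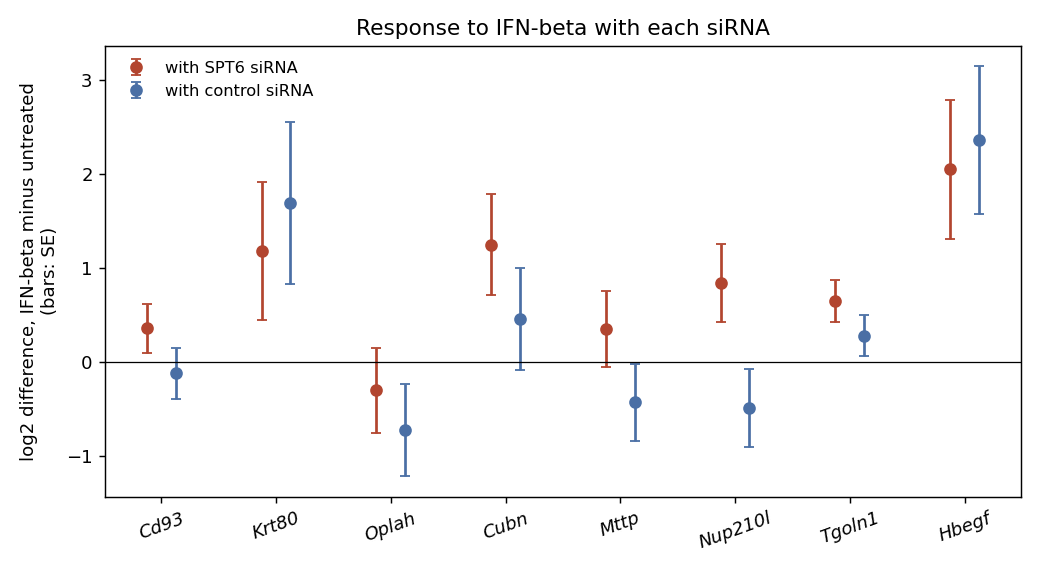
Log2 difference between IFN-beta and untreated libraries (y axis) for the 8 genes (x axis), with SPT6 siRNA left and control siRNA right in each pair of points; bars are standard errors of the edgeR fit over 6 libraries. Hbegf has the highest points, 2.05 with SPT6 siRNA and 2.36 with control siRNA, and no point passed the test over all genes.

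The IFN-beta libraries differed between replicates as well. The gap between the siRNAs in this is made from the pair differences the genes were picked on, so it is a description only. With SPT6 siRNA all 8 genes were higher in replicate 2 than in replicate 1, with a median log2 difference of 0.81, beside 49.9% of all genes above 0. With control siRNA 4 of the 8 were higher in replicate 2, with a median of -0.04, beside 51.9% of all genes above 0, so that count was near the background. Krt80 and Hbegf were higher in replicate 2 with both siRNAs, Krt80 by 2.74-fold with SPT6 siRNA and 2.11-fold with control siRNA, and Hbegf by 2.36-fold and 2.20-fold in the same order. Mttp was 1.24-fold higher with SPT6 siRNA and 0.516 times its replicate 1 level with control siRNA, and Oplah 1.68-fold higher and 0.547 times.

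As a description over the 6 libraries, Tgoln1 followed the mean profile of the other listed genes most closely (Pearson r = 0.984) and Hbegf least (r = 0.713). Oplah and Hbegf were the pair of genes least alike (r = 0.399), and Cd93 and Mttp the most (r = 0.973). These values share the siRNA difference the genes were picked on. Outside the list, among 11573 genes, the 5 whose log2 CPM was closest to the mean profile of the 8 were Gm19705 (r = 0.998), Rps6kb1 (0.996), Stx8 (0.995), Slc39a11 (0.995) and Carhsp1 (0.994). Likeness of profile did not mean likeness of size. Rps6kb1, the gene of a ribosomal protein S6 kinase, was at 98.4, 103 and 108 CPM with SPT6 siRNA and 85.7, 88.0 and 86.8 CPM with control siRNA. Carhsp1 was at 153, 168 and 190 CPM with SPT6 siRNA and 92.9, 101 and 96.9 CPM with control siRNA.

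Gene structure varied among the 8. Exon length had a median of 6022 bases (4834 to 14935), against 4529 over 11874 tested protein-coding genes, and the whole gene a median of 27067 bases (6924 to 215476), against 24173. The largest number of exons in a transcript ran from 2 in Cd93 to 67 in Cubn. The minus strand held 7 of the 8, and 49.7% of those protein-coding genes.

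The genes next to or overlapping the listed ones were looked at on both sides. Of 20 such genes 14 were tested, with log2 differences between -0.89 and 0.98. Their median was 0.11, beside -0.02 over all tested genes. Of the 14, 8 were above 0, near the 47.7% of all tested genes. Only 1 was called higher (background 0.857%) and none lower (background 0.0455%). The gene called was Thbd, 28452 bases downstream of Cd93 on the same strand. Thbd encodes thrombomodulin, of the same lectin family as Cd93. Thbd was at 188, 260 and 304 CPM with SPT6 siRNA, against 87.0, 128 and 173 CPM with control siRNA, and rose by 0.98 ± 0.15 on the log2 scale (edgeR adjusted p = 0.0341; 0.306 at most over 15 alternative settings, 7 of which called it). The call was lost without any 1 library other than SPT6 siRNA IFN-beta replicate 1. Every SPT6 siRNA library lay above every control library.

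Overlapping genes on the other strand bear on what was counted, since the strand setting of the counting is not given. In GENCODE, Mttp overlaps the start of Trmt10a, a tRNA methyltransferase gene, which begins at 138143448, inside the Mttp window printed above. The RefSeq start of Mttp lies just below 138143419, so from that start Mttp does not reach the GENCODE start of Trmt10a. Which annotation the counts used is not given. Trmt10a was at 23.2, 31.5 and 30.6 CPM with SPT6 siRNA and 25.1, 31.1 and 32.4 CPM with control siRNA (log2 difference -0.06 ± 0.12). Oplah overlaps Exosc4, an exosome subunit gene (0.05 ± 0.14), at its start and Smpd5 (-0.50 ± 0.69) at its end. Mir1941, inside Krt80, was at 0 in all libraries. Annotated on the other strand, under symbols not analysed here, were Gm35853 over Krt80, Gm13270 over the end of Cubn, Gm43691 inside Mttp and Gm20536 inside Tgoln1. Reads from these cannot be told apart from those of the listed genes if the counting ignored strand. Inside Nup210l, on its own strand, were Gm23723 (a snoRNA gene), Gm43712 (a pseudogene) and Gm24185 (a snRNA gene), also under symbols not analysed here. Their part in the counts of Nup210l was not tested.

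Retsat, the retinol saturase gene, ends 7 bases from the end of Tgoln1 on the other strand and was at 32.6, 29.4 and 38.2 CPM with SPT6 siRNA, against 25.5, 23.0 and 23.9 CPM with control siRNA (0.47 ± 0.15, adjusted p = 0.138). Rps27, a ribosomal protein gene 474 bases beyond Nup210l on the other strand, had 1.02 to 2.04 CPM with SPT6 siRNA and 1.72 to 3.31 CPM with control siRNA (-0.89 ± 0.42, adjusted p = 0.286). Tpm3, upstream of Nup210l on the same strand, differed by -0.13 ± 0.14, and Rsu1, 4923 bases beyond Cubn, by -0.38 ± 0.12 (adjusted p = 0.149). Tcf7l1, a transcription factor gene upstream of Tgoln1, was at 7.07, 4.38 and 4.09 CPM with SPT6 siRNA and 11.2, 6.02 and 6.76 CPM with control siRNA (-0.62 ± 0.19, adjusted p = 0.133). Nxt1 beside Cd93 (0.22 ± 0.17), Gpaa1 beside Oplah (0.20 ± 0.21), Trdmt1 beside Cubn (0.31 ± 0.19) and Pfdn1 beside Hbegf (0.16 ± 0.12) were not called. Too low to test were 6030408B16Rik, Spatc1, Gm5105, 4930579F01Rik and Slc4a9. Krt7, the nearest gene upstream of Krt80, was at 0.522 to 0.917 CPM with SPT6 siRNA and 0.119 to 0.602 CPM with control siRNA (0.94 ± 0.66).

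**Figure D4:**
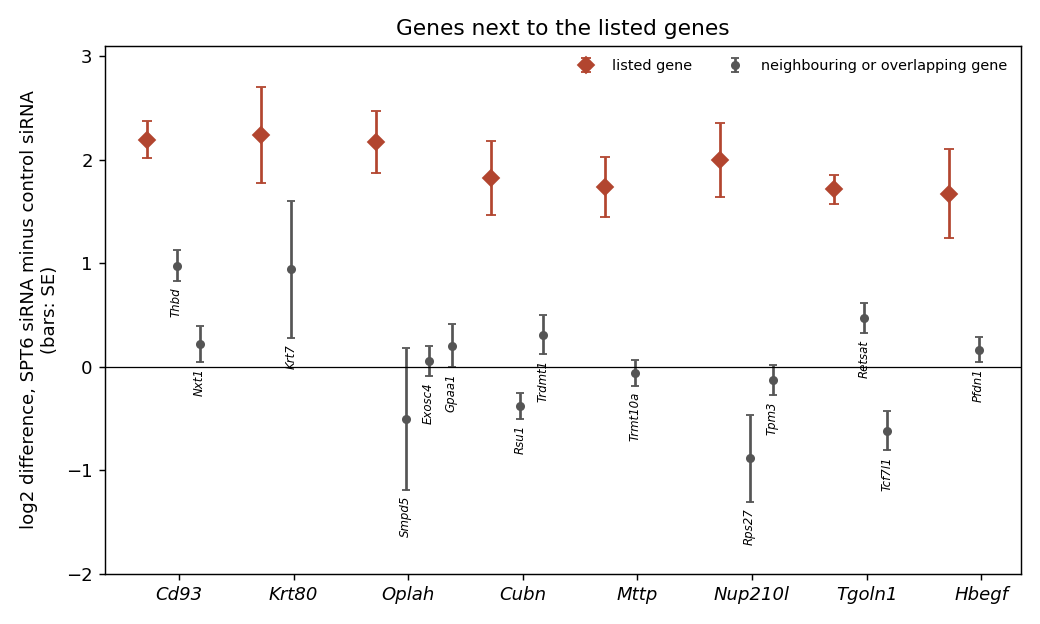
Log2 difference between SPT6 siRNA and control siRNA over 6 libraries (y axis) for the 8 genes (diamonds) and for the tested genes next to or overlapping each (circles, named), with standard errors as bars. The circles lie between -0.89 and 0.98, and of them only Thbd, beside Cd93, passed the test. The diamonds show the contrast the 8 genes were picked on and are there for scale.

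Partners of the encoded proteins were taken from lists by role, each without the gene it was built round. The background for each list is 0.857% of tested genes called higher, 0.0455% called lower and a median of -0.02 over all tested genes, by edgeR. Of all 13185 tested genes, 2624 had an unadjusted p under 0.05 in this edgeR fit, and 47.7% had a difference above 0. Of 16 tested ligands, receptors and proteases of the EGF receptor family, none was called (1 at an unadjusted p under 0.05) and the median difference was 0.09. Ereg, another ligand of this receptor, was at 27.3, 121 and 274 CPM with SPT6 siRNA and 23.4, 47.1 and 151 CPM with control siRNA (0.76 ± 0.52, adjusted p = 0.471). Egfr itself was at 4.19, 4.28 and 1.56 CPM with SPT6 siRNA and 5.42, 4.14 and 1.54 CPM with control siRNA, and Areg had 9 counts over all libraries. Lrig1, whose product restrains EGF receptors, differed by 0.51 ± 0.14 (adjusted p = 0.109).

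Of 7 tested relatives and partners of Cd93, Thbd was the only gene called, and Mmrn2, whose product binds Cd93, differed by 0.23 ± 0.31. Among 14 tested partners of cubilin and genes of vitamin B12 transport none was called (3 at an unadjusted p under 0.05, median 0.10). Amn, whose product anchors cubilin in the membrane, had 7 counts over all libraries. Lrp2, the gene of megalin, which cubilin works with, was at 0.509 to 1.13 CPM with SPT6 siRNA and 0.475 to 0.903 CPM with control siRNA. Lmbrd1 (0.71 ± 0.13, adjusted p = 0.0534) and Lrpap1 (0.55 ± 0.11, adjusted p = 0.0637), a lysosomal B12 exporter and a chaperone of LDL-receptor relatives, had the largest differences named here, beside Cd320 (0.43 ± 0.17) and Tcn2 (0.37 ± 0.23), of B12 uptake and carriage, and Mmab (-0.30 ± 0.18), of B12 processing.

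Lipoprotein assembly had none of 10 tested genes called (2 at an unadjusted p under 0.05, median 0.17). Apob, whose product is loaded with lipid by the Mttp protein, had 24 counts over all libraries. Apoe was at 2.996, 5.30 and 6.09 CPM with SPT6 siRNA and 1.56, 2.03 and 2.67 CPM with control siRNA (1.17 ± 0.26, adjusted p = 0.0707). Sar1b, of the vesicle coat that carries lipoproteins from the endoplasmic reticulum, differed by 0.52 ± 0.13 (adjusted p = 0.0913). In the gamma-glutamyl cycle and glutathione synthesis, none of 16 was called (3 at an unadjusted p under 0.05, median -0.14). Gclc, the catalytic subunit of the first step of glutathione synthesis, differed by 0.64 ± 0.18 (adjusted p = 0.113), its partner Gclm by -0.26 ± 0.20 and Slc7a11, the cystine importer, by -0.87 ± 0.30 (adjusted p = 0.181). Ggct, whose product makes 5-oxoproline, the substrate of the Oplah enzyme, differed by 0.22 ± 0.24, and Cndp2, a dipeptidase gene, by 0.53 ± 0.16 (adjusted p = 0.121).

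For the trans-Golgi network, none of 23 tested genes was called (6 at an unadjusted p under 0.05), 19 were above 0 and the median was 0.19, where 47.7% of all tested genes were above 0. M6pr, a mannose 6-phosphate receptor gene, was at 207, 249 and 303 CPM with SPT6 siRNA and 116, 177 and 183 CPM with control siRNA (0.69 ± 0.13, adjusted p = 0.0524), and Vps53, of a tethering complex, differed by 0.81 ± 0.15 (adjusted p = 0.0534). Igf2r, the other mannose 6-phosphate receptor gene, differed by 0.49 ± 0.14, the adaptor genes Ap1b1, Ap1g1 and Gga2 by 0.46 ± 0.11, 0.30 ± 0.12 and 0.28 ± 0.12, and the copper transporter gene Atp7a by 0.47 ± 0.13 (adjusted p of 0.0768 to 0.251). Of 27 tested nucleoporin genes 7 were above 0, the median was -0.18 and none was called (3 at an unadjusted p under 0.05). Ndc1, Nup43, Nup85, Nup88, Nup93 and Nup107 differed by -0.41 to -0.31 (adjusted p of 0.159 to 0.481). Nup210, the relative of Nup210l, had 66 counts over all libraries (-0.23 ± 0.82). Among 6 tested keratin and desmosome genes none was called (2 at an unadjusted p under 0.05), 5 were above 0 and the median was 0.73, with Ppl at 1.07 ± 0.33 (adjusted p = 0.131) and Jup at 0.53 ± 0.19 (adjusted p = 0.180).

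Markers of the cell types these genes are known from were mostly at or near 0. Of 10 endothelial markers, which summed to 11.3 to 12.3 CPM with SPT6 siRNA and 8.36 to 13.0 CPM with control siRNA, 3 were tested and none was called; the defining markers Pecam1, Cdh5 and Kdr had 26, 9 and 3 counts over all libraries. Vwf, the von Willebrand factor gene, had 16, 17 and 47 counts with SPT6 siRNA, against 11, 11 and 6 counts with control siRNA (1.93 ± 0.52, adjusted p = 0.102 by edgeR), with the widest gap in IFN-beta replicate 2. Tek (-0.35 ± 0.55) and Egfl7 (-0.14 ± 0.20), the other tested endothelial markers, had differences below 0. The part of endothelial marker RNA in the difference of Cd93 was not tested. Of 10 epithelial markers 3 were tested and none called, Epcam and Krt5 were at 0 in every library, and the sum was 1.68 to 3.30 CPM with SPT6 siRNA and 0.890 to 1.505 CPM with control siRNA. Ovol1, an epithelial transcription factor gene, had 0, 2 and 17 counts with SPT6 siRNA and 0 in every control siRNA library (adjusted p = 0.162 by edgeR). The 8 kidney tubule markers summed to 11.8 to 12.8 CPM with SPT6 siRNA and 10.3 to 18.7 CPM with control siRNA, nearly all of it Aqp1; 2 were tested and none called, and Slc22a6 and Miox were at 0. Liver and intestine markers summed to 0.959 to 2.09 CPM with SPT6 siRNA and 0.593 to 0.986 CPM with control siRNA, with 4 of 9 at 0, Hnf4a and Ttr included, and 1 tested but not called.

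Of 8 male germ cell markers 2 were tested, none was called and 3 were at 0; the sum was 8.87 to 14.1 CPM with SPT6 siRNA and 12.7 to 16.6 CPM with control siRNA. Macrophage markers summed to 15.1 to 18.3 CPM with SPT6 siRNA and 7.71 to 11.01 CPM with control siRNA over 7 genes. Of the 4 tested, 1 was called: Cd68, a lysosomal membrane protein gene, was at 6.47, 7.74 and 9.91 CPM with SPT6 siRNA, against 2.38, 2.71 and 2.19 CPM with control siRNA, and rose by 1.72 ± 0.24 (edgeR adjusted p = 0.0341; 0.238 at most over 15 alternative settings, 7 of which called it). That call too was lost without any 1 library other than SPT6 siRNA IFN-beta replicate 1. Tyrobp was at 0 and Ptprc had 9 counts over all libraries. In bulk samples, fewer cells of a type and less RNA per cell cannot be told apart.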

How the data were processed

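RNA counts of 6 libraries of NIH3T3 cells were used. The deposited values are whole-number counts per gene symbol, made by the authors from paired-end reads with no scaling. Tools and builds named, per the submitters' processing notes and with no role given, were HTSeq 0.6.1p1, TopHat2 2.1.0 and DESeq2, and GRCm38 and mm10. The annotation and strand setting are not given in the sources used here. Lines that name no gene (no feature 33.8% to 37.5%, not uniquely aligned 27.9% to 31.3%, ambiguous 0.326% to 0.384% of reads) were left out.

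Genes were kept by filterByExpr (minimum count 10, by group) and normalised by TMM. Tests used edgeR 4.0.16 in R 4.3.3 (glmQLFit robust, glmQLFTest), with Benjamini-Hochberg adjustment over 13185 genes and a threshold of 0.05. SPT6 siRNA over 3 pairs and IFN-beta over both siRNAs came from a model of treatment and siRNA; responses with each siRNA came from 4 group means. Each standard error was taken as the fitted log2 difference divided by the root of its F statistic. Ratio intervals are exact binomial (Clopper-Pearson) 95% intervals and cover counting error only. The labels do not say that a replicate number marks a shared culture, so no fit reported as the result used it. The script was tested on simulated data.

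The members and gene lists were chosen with earlier results of these data known. Named genes were the listed genes, Supt6, their nearest annotated neighbours, the genes tied most directly to a member, other genes of the pathway lists past the test with or without a replicate term and the 5 genes of most similar profile; examples are values, not calls, unless said. Positions are from GENCODE M21 (GRCm38), which matched 22750 of 24062 symbols (94.5%). Libraries of a group were not duplicates (chi-square per degree of freedom 36.9 and 41.8 with SPT6 and control siRNA). Alternatives were DESeq2 1.42.0, limma-voom 3.58.1, other scalings and filters, a replicate term, fewer libraries and other prior counts.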

Additional observations from a re-analysis of the deposited data

Results flagged for a closer look

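Nup210l and Mttp were picked out because both IFN-beta libraries lay above the untreated library with SPT6 siRNA and both lay below it with control siRNA. For Nup210l the response was 0.85 on the log2 scale with SPT6 siRNA and -0.49 with control siRNA, a difference of 1.34. For Mttp it was 0.35 with SPT6 siRNA and -0.43 with control siRNA, a difference of 0.78. The difference between the responses was not tested, and it rests on 1 untreated library for each siRNA. It is also made from the same pair differences the genes were picked on. For Mttp the control siRNA libraries were at 12.0 and 6.17 CPM with IFN-beta and 12.2 CPM untreated, so the first of these lay close to the untreated value.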

How the results depend on the processing

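The pair differences of the 8 genes kept their direction under both other prior counts and both other scalings, with medians of 1.63 to 1.71 untreated, 1.60 to 1.70 in IFN-beta replicate 1 and 2.47 to 2.60 in IFN-beta replicate 2. Scaling by library size only moved the median of all genes in the last pair by 0.10. Counts of called genes depended on the method. For SPT6 siRNA over all pairs the 119 genes called became 222 by library size only, 593 without a filter (66.9% of them higher, against 95% before), 722 with DESeq2 (66.2% higher), 11 with limma-voom, 0 with the 4 IFN-beta libraries alone and 0 for SPT6 siRNA among cells given IFN-beta in the fit of 4 group means; with 1 library left out they ran from 0 to 154, at 0 without either untreated library or SPT6 siRNA IFN-beta replicate 2, at 3 without control IFN-beta replicate 1 and at 2 without control IFN-beta replicate 2. For IFN-beta over both siRNAs the 283 became 543 without a filter, 853 with DESeq2 and 181 with limma-voom, and 5 to 520 with 1 library left out, at 5 without control untreated (SPT6 siRNA alone), 18 without SPT6 siRNA untreated (control siRNA alone), 176 without replicate 2 of SPT6 siRNA with IFN-beta and 520 without SPT6 siRNA IFN-beta replicate 1; 80.6% were higher, against 66.4% by library size only. With SPT6 siRNA the 6 became 12 by library size only, 46 without a filter, 129 with DESeq2 and 0 with limma-voom, and 5 to 25 with 1 library left out. With control siRNA the 18 became 77, 206 and 5 without a filter, with DESeq2 and with limma-voom, and 16 to 52 with 1 library left out. The cause was not tested.

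With the replicate number as a replicate block, the counts were 3247 for SPT6 siRNA (48.4% higher), 1357 for IFN-beta over both siRNAs (62.9% higher), 545 with SPT6 siRNA and 957 with control siRNA. Replicate 1 minus replicate 2 correlated between the siRNAs at 0.56 over genes, in 2 pairs only, so libraries of the same number differed in part alike. The labels do not say why, and whether the number marks a shared culture was not tested. Replicate 2 had no untreated library. With the block, the comparison of IFN-beta with untreated cells therefore rests on replicate 1, with 1 IFN-beta and 1 untreated library for each siRNA. The IFN-beta counts above share this limit. Under the block the Hbegf difference was 1.46 over both siRNAs (2.19 without it), 1.33 with SPT6 siRNA and 1.65 with control siRNA. Though smaller, the Hbegf difference over both siRNAs passed the test under the block, with the limit just given. Mttp stood at 0.083 and Nup210l at -0.026 over both, and Cubn at -0.0063 with control siRNA. The block called 11.9% of all tested genes higher and 12.7% lower with SPT6 siRNA. In the lists it called 7 of 23 trans-Golgi genes higher and 6 of 27 nucleoporin genes lower. Of 14 cubilin partners it called 4 higher (Lmbrd1, Lrpap1, Cd320 and Tcn2) and 1 lower (Mmab). Of 16 gamma-glutamyl genes 2 were called higher (Gclc and Cndp2) and 1 lower (Slc7a11). Of 16 EGF receptor genes 2 were called higher (Ereg and Lrig1), and of 10 lipoprotein genes 2 (Apoe and Sar1b). Of 6 keratin and desmosome genes 2 were called higher (Ppl and Jup), and of 7 lectin genes 1 (Thbd). Of 8 fibroblast markers 7 were called lower. Among other markers, 1 endothelial (Vwf), 1 epithelial (Ovol1) and 1 macrophage marker (Cd68) were called higher. IFN-beta within 1 siRNA could not be fitted without the untreated library of that siRNA.

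IFN-beta responses of the 8 near 0 changed sign with 1 library left out. In the comparison over both siRNAs, Cd93 ran from -0.12 to 0.35, Mttp from -0.43 to 0.35 and Nup210l from -0.49 to 0.84. The ends of these ranges leave out an untreated library, so that the contrast then rests on the other siRNA alone. With SPT6 siRNA Oplah ran from -0.74 to 0.018, and with control siRNA Cd93 ran from -0.37 to 0.087. None of these was called in any setting. Krt80 over both siRNAs passed without SPT6 siRNA IFN-beta replicate 1 (adjusted p = 0.0329).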
